A study of Rattus norvegicus with 6 samples.

Results

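Potassium channel genes were taken as every gene whose symbol starts with Kcn, which gave 87 of the 15227 genes in the files, in 21 families named by the letters after Kcn. The rule used no measured value. Of the 87, 76 had at least 30 unique molecular identifiers (UMIs, tags meant to count each captured transcript once, although even counts were in excess here, so that a UMI may not be 1 transcript) over all kept cells, 11 had some but fewer, and 0 had none. Counts come from droplet single-cell libraries (10x Genomics) of rat cerebral hemisphere, digested with trypsin, 3 libraries of normal control rats (NC, labelled negative control) and 3 of rats poisoned with carbon monoxide (CO). CO rats breathed the gas in a sealed chamber at 1000 ppm for 40 minutes and then at 3000 ppm for 20 minutes, and counted as severely poisoned when consciousness was impaired and carboxyhemoglobin (hemoglobin that has bound CO) was above 60%. Strain, age, sex and the time from exposure to sampling are not given in the sources used here.

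Potassium channels let potassium leave or enter a cell along its gradient and so set its resting potential, end action potentials and buffer the potassium that active neurons release. Voltage-gated channels (Kcna to Kcnd, Kcnq, Kcnh) open on depolarization, inward rectifiers (Kcnj) hold the resting potential, tandem-pore channels (Kcnk) carry leak current, and Kcnma, Kcnn and Kcnt channels open with intracellular calcium or sodium. Kcne, Kcnab, Kcnip and Kcnmb encode accessory subunits, and Kcng, Kcns, Kcnf and Kcnv encode subunits that conduct only when assembled with others. In the brain, inward rectifiers of astrocytes are known for clearing extracellular potassium, a tandem-pore channel of microglia for the movement of their processes, and an ATP-sensitive inward rectifier of pericytes for coupling metabolism to capillary tone.

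Library totals ran from 39494470 to 47322264 UMIs, and 19682 NC cells (median 4757 UMIs) and 17166 CO cells (median 5575.5) were kept. The design text names 3 rats in each group, but the libraries of a group differed about as little as parts of 1 pool of cells: the spread between libraries, relative to that between cells and averaged over genes, was 1.02 in NC and 1.06 in CO, where parts of 1 pool give about 1. Each group was therefore counted as 1 sample, no p-value is given, and the spread between libraries is not taken as spread between rats. For the 26 and 29 Kcn genes in this check the average was 1.22 in NC and 1.15 in CO, and some values by library lay far apart. Cells fell into classes named "X-like" from marker genes without any Kcn gene, and 11 classes had at least 30 cells in every library and were compared. The defining markers were present in their classes. The 10 microglia markers summed to 6705 CPM (the usual unit of counts relative to a sample's total) in NC and 6703 in CO microglia-like cells, and the 10 oligodendrocyte markers to 23131 and 23150.5 in oligodendrocyte-like cells. No cluster was named neuron-like, so neuronal channels could be followed only in neuroblast-like cells, immature neurons whose 9 neuron markers summed to 1274 CPM in NC and 1413 in CO. Clusters without a name made up 18.7% of the NC cells and 12.4% of the CO cells. Free RNA was visible. The choroid plexus markers summed to 974 CPM in NC and 437 in CO microglia-like cells, where Kcnj13, the main choroid plexus member, stood at 2.97 and 3.11 CPM.

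Levels are CPM after scaling each class between the groups by trimmed means (TMM). They are not divided by gene length, so an order between genes also follows how well each transcript is captured. A ratio is CO over NC, with a 95% interval that covers counting error only. "Rose" and "fell" are kept for at least 2-fold differences whose interval leaves out 1, with at least 30 UMIs over both groups. Kcn genes took 0.0724% to 0.0908% of the UMIs of a library. In NC their summed level was largest in astrocyte-like (2452 CPM) and choroid plexus-like cells (2148 CPM), followed by smooth muscle-like (1334 CPM), pericyte-like (1134 CPM), oligodendrocyte-like (1046 CPM) and neuroblast-like cells (1043 CPM). It was lower in ependymal-like (642 CPM), microglia-like (627 CPM) and macrophage-like cells (617 CPM), and lowest in endothelial-like cells (127 CPM). In CO the sum was 2098 CPM in astrocyte-like, 1907 in choroid plexus-like, 1671 in pericyte-like, 962 in oligodendrocyte-like and 546 in microglia-like cells.

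**Figure D1:**
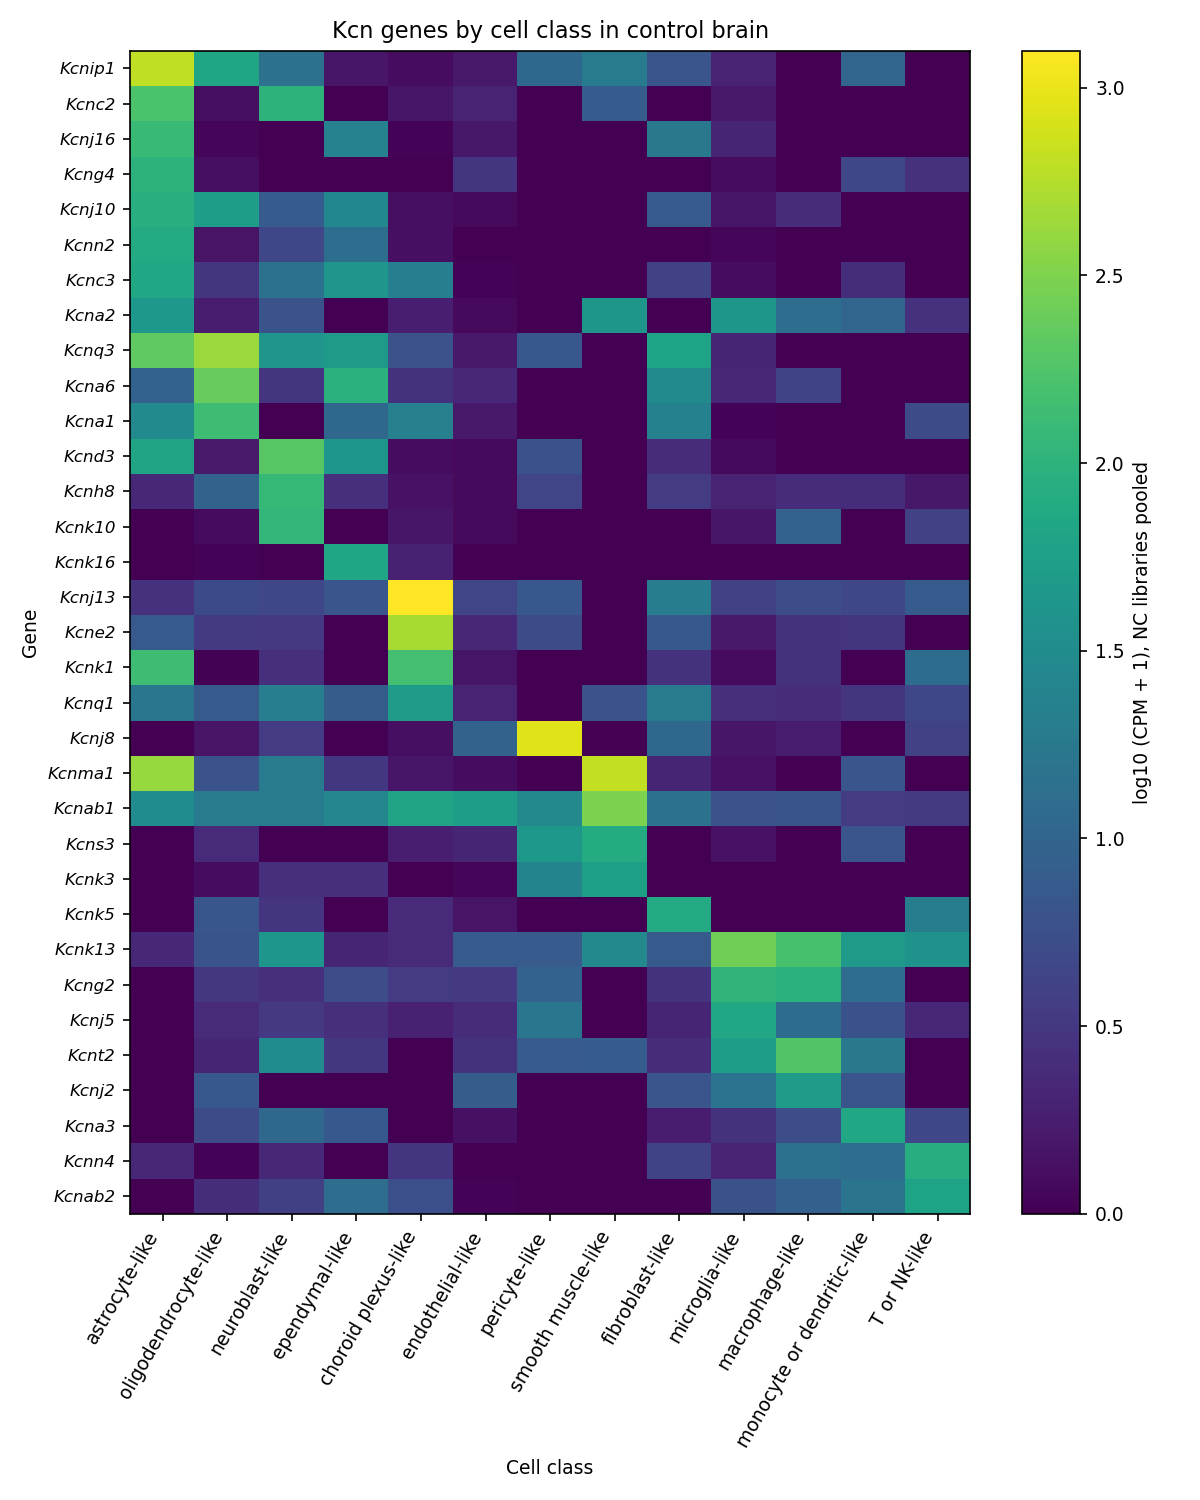
Levels of 33 Kcn genes (rows) in 13 cell classes (columns) of the NC group, as log10 of CPM plus 1, each with at least 40 CPM and 30 UMIs in its highest class. Kcnj13 (1254 CPM) and Kcne2 (490.0 CPM) are highest in choroid plexus-like cells, Kcnj8 (878 CPM) in pericyte-like cells and Kcnq3 (433 CPM) in oligodendrocyte-like cells.

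Of 236 gene and class pairs with enough UMIs, over 68 genes, 25 rose and 20 fell in CO. Over all 106879 pairs of any gene and class, 5.22% rose and 4.52% fell. Kcn pairs thus had larger shares in both directions, which was not tested, though most of them stayed under 2-fold. By class, the shares over all genes ran from 2.54% to 9.2% for rises and from 2.46% to 6.38% for falls, and are given with each class. The 45 pairs involved 32 genes. All 3 CO libraries lay on one side of all 3 NC libraries in 88 of the 236 pairs, beside 34.5% of pairs over all genes. By class, the count of Kcn genes that rose and fell was 4 and 3 of 37 in neuroblast-like cells, 2 and 4 of 36 in microglia-like cells (2.54% and 3.11% of all genes there), 2 and 1 of 35 in oligodendrocyte-like cells and 2 and 4 of 29 in choroid plexus-like cells. It was 1 and 2 of 23 in astrocyte-like, 5 and 2 of 21 in ependymal-like, 4 and 1 of 17 in endothelial-like, 0 and 1 of 12 in macrophage-like, 2 and 2 of 10 in monocyte or dendritic-like, 3 and 0 of 9 in pericyte-like and 0 and 0 of 7 in T or NK-like cells (6.4% and 6.26% of all genes there). In T or NK-like cells edgeR over libraries also called 0 Kcn genes, with 0 at an unadjusted p under 0.05, where 7.46% of all genes were called at an adjusted p under 0.05. In microglia-like cells it called 11 of the 36 Kcn genes, where 38.2% of all genes were called. By that rule the Kcn genes did not stand above the background. Because the libraries of a group were like parts of 1 pool, these edgeR p-values do not measure spread between rats. The median log2 ratio of the Kcn genes was -0.50 in macrophage-like, -0.25 in microglia-like, -0.19 in choroid plexus-like, -0.15 in astrocyte-like and -0.10 in T or NK-like cells. It was 0.06 in ependymal-like, 0.20 in endothelial-like, 0.21 in oligodendrocyte-like, 0.32 in monocyte or dendritic-like, 0.47 in neuroblast-like and 0.56 in pericyte-like cells, where the median over all genes lay between -0.01 and 0.01. Of the 45, 7 held the 2-fold call under every alternative processing and without each library in turn. They were Kcnq3 and Kcnip1 in oligodendrocyte-like cells, Kcnj3 in neuroblast-like cells, Kcnc2 in astrocyte-like cells, Kcna2 in microglia-like cells, Kcnab1 in choroid plexus-like cells and Kcnh1 in pericyte-like cells.

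**Figure D2:**
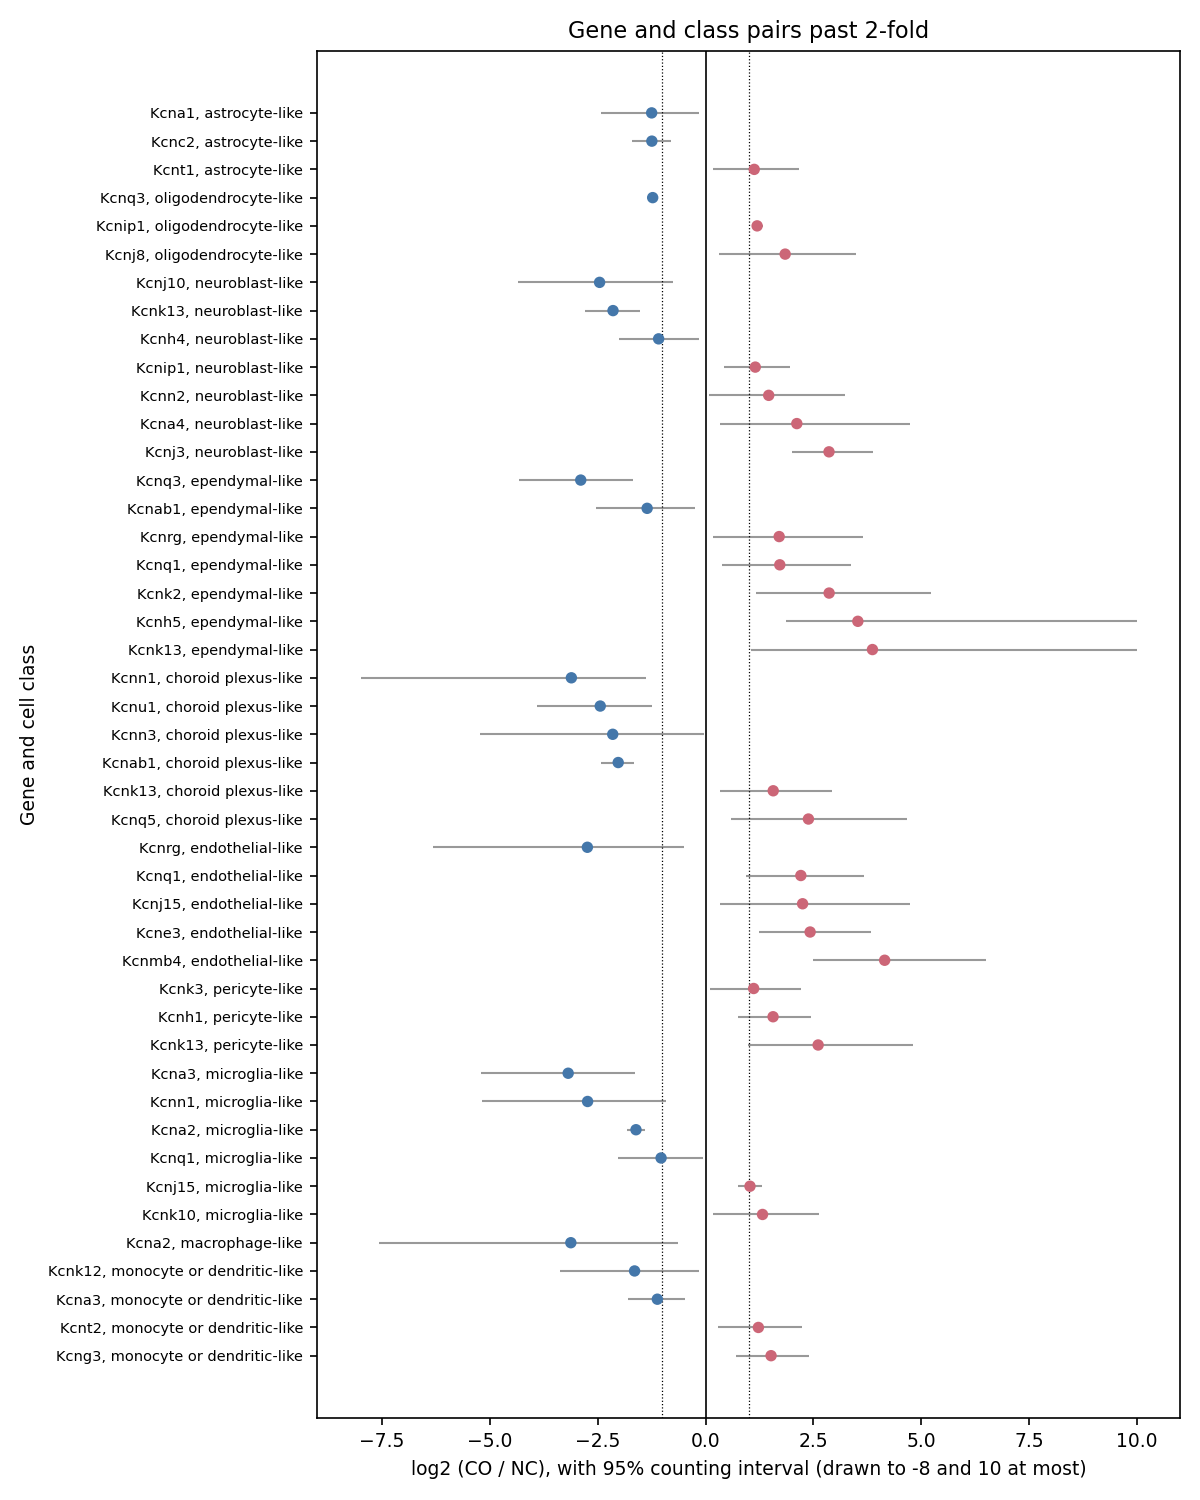
The 45 gene and class pairs at least 2-fold apart, as log2 of the CO over NC ratio with its 95% counting interval, red for higher and blue for lower in CO, and dotted lines at 2-fold. The widest intervals are cut at the limits named on the axis. Intervals are narrow for Kcnq3 and Kcnip1 in oligodendrocyte-like cells and wide for genes that rest on few UMIs.

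The inward rectifiers held the largest share of the Kcn UMIs, 25.1% in NC and 28.8% in CO. Kcnj13 encodes the inward rectifier of choroid plexus epithelium, which secretes cerebrospinal fluid. It stood at 1237, 1159 and 1360.0 CPM in NC and 1153, 997 and 1442 in CO choroid plexus-like cells. The groups overlapped and the ratio was 0.976 (interval 0.943 to 1.01). In NC the next class, fibroblast-like cells, had 19.7 CPM. Kcnj8, the pore of the ATP-sensitive channel of capillary pericytes, stood at 968, 853 and 819.7 CPM in NC and 1520.3, 1189 and 1229 in CO pericyte-like cells. Every CO library was above every NC library, but the ratio of 1.48 (1.31 to 1.66) stayed under 2-fold. Its partner Abcc9, the sulfonylurea receptor of that channel, was at 3506 CPM in NC and 4053 in CO, a ratio of 1.16 (1.09 to 1.23). Kcnj8 was at 8.65 CPM in NC and 13.5 in CO endothelial-like cells, and in smooth muscle-like cells it had 0 UMIs in NC and 3 in CO.

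Kcnj10 and Kcnj16 encode the glial pair of inward rectifiers. Kcnj10 stood at 96.9, 102 and 61.4 CPM in NC and 96.0, 82.2 and 96.1 in CO astrocyte-like cells, ratio 1.05 (0.749 to 1.48). It was also present in oligodendrocyte-like cells, at 53.7 CPM in NC and 65.3 in CO, ratio 1.22 (1.08 to 1.37). Kcnj16 was at 124 CPM in NC and 98.5 in CO astrocyte-like cells, ratio 0.793 (0.586 to 1.07), and the next class in NC was ependymal-like cells (22.7 CPM). In astrocyte-like cells neither gene differed beyond its counting interval.

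Kcnj3 encodes a G-protein-gated inward rectifier (GIRK) of neurons. In neuroblast-like cells it stood at 9.36, 10.0 and 6.09 CPM in NC and 69.4, 51.3 and 61.9 in CO. All CO libraries lay far above all NC libraries, and Kcnj3 rose 7.28-fold (4.00 to 14.8). The counts were 26 UMIs in 10 of 493 NC cells and 567 UMIs in 158 of 1409 CO cells. Within the main neuroblast-like cluster the level was 14.1 CPM in NC and 91.0 in CO, so the rise was present within 1 cluster. Its log2 ratio of 2.86 went to 4.30 in cells gated 1 by 1 and to 2.16 in cells thinned to 2000 UMIs. The neuroblast markers themselves summed to 8156 CPM in NC and 8249 in CO. Kcnj10 fell in the same class from 7.06 to 1.29 CPM, ratio 0.182 (0.0488 to 0.595), beside astrocyte markers that summed to 393 CPM in NC and 302 in CO; the part of astrocyte RNA in this fall was not tested. Without NC 01, NC 03 or CO 01 the Kcnj10 call was lost (log2 -2.30, -2.13 and -4.46).

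Kcnj8 also rose in oligodendrocyte-like cells, from 0.446 to 1.61 CPM, on 1 library: CO 03 was at 3.85 CPM, CO 01 and CO 02 at 0.593 and 0.405, and NC 01, NC 02 and NC 03 at 1.11, 0.0923 and 0.0809. The log2 ratio was 0.17 without CO 03 and 4.21, 1.42 and 1.33 without NC 01, NC 02 and NC 03, none of them called. It was -0.13 with doublets kept.

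Microglia-like cells were the largest class (6386 NC and 7221 CO cells) and 36 Kcn genes had enough UMIs there. The tandem-pore channel Kcnk13 led, followed in NC by the silent subunit Kcng2, the GIRK gene Kcnj5, the sodium-activated channel Kcnt2 and the voltage-gated channel Kcna2. Kcnk13 carries the resting leak current of microglia. It was at 269, 269 and 259 CPM in NC and 256, 240.3 and 240.1 in CO, ratio 0.924 (0.886 to 0.964). Kcng2 was at 102, 106 and 107 CPM in NC and 79.2, 77.8 and 79.7 in CO, ratio 0.753 (0.701 to 0.808). For both genes every CO library lay below every NC library, with differences well under 2-fold. Kcnj5 was at 68.4 CPM in NC and 71.9 in CO (0.970 to 1.14), and Kcnt2 at 51.9 and 41.6, ratio 0.803 (0.726 to 0.887). Kcnh3, a slow voltage-gated channel, was at 21.8 CPM in NC and 18.3 in CO. Kcnj2, the classical strong inward rectifier, was at 14.1 CPM in NC and 16.7 in CO, ratio 1.18 (0.992 to 1.41).

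Kcna2 and Kcnj15 moved apart in microglia-like cells. Kcna2, a delayed rectifier best known from axons, stood at 37.8, 45.0 and 46.2 CPM in NC and at 14.5, 14.6 and 13.3 in CO. The groups were far from overlapping and Kcna2 fell to 0.327 of its NC level (0.283 to 0.378). It had 1539 UMIs in 926 NC cells and 634 UMIs in 406 CO cells, and it was lower in CO in each of the 4 microglia-like clusters: from 42.4 to 13.2 CPM in cluster 0, 40.1 to 11.5 in cluster 1, 62.5 to 22.0 in cluster 3 and 34.9 to 9.2 in cluster 11. Kcnj15, an inward rectifier otherwise known from kidney, stood at 11.2, 9.18 and 9.75 CPM in NC and at 20.8, 20.7 and 20.0 in CO. All CO libraries were above all NC libraries, and Kcnj15 rose 2.04-fold (1.69 to 2.48), just over the 2-fold line. It was higher in CO in each of the 4 clusters, from 11.2 to 22.5, 12.2 to 16.4, 7.1 to 26.5 and 3.5 to 10.9 CPM. Without NC 02, or with scaling by total UMIs alone, the log2 ratio was 0.97 and the 2-fold line was missed. Counts of Kcnj15 came from 222 NC and 584 CO cells.

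**Figure D3:**
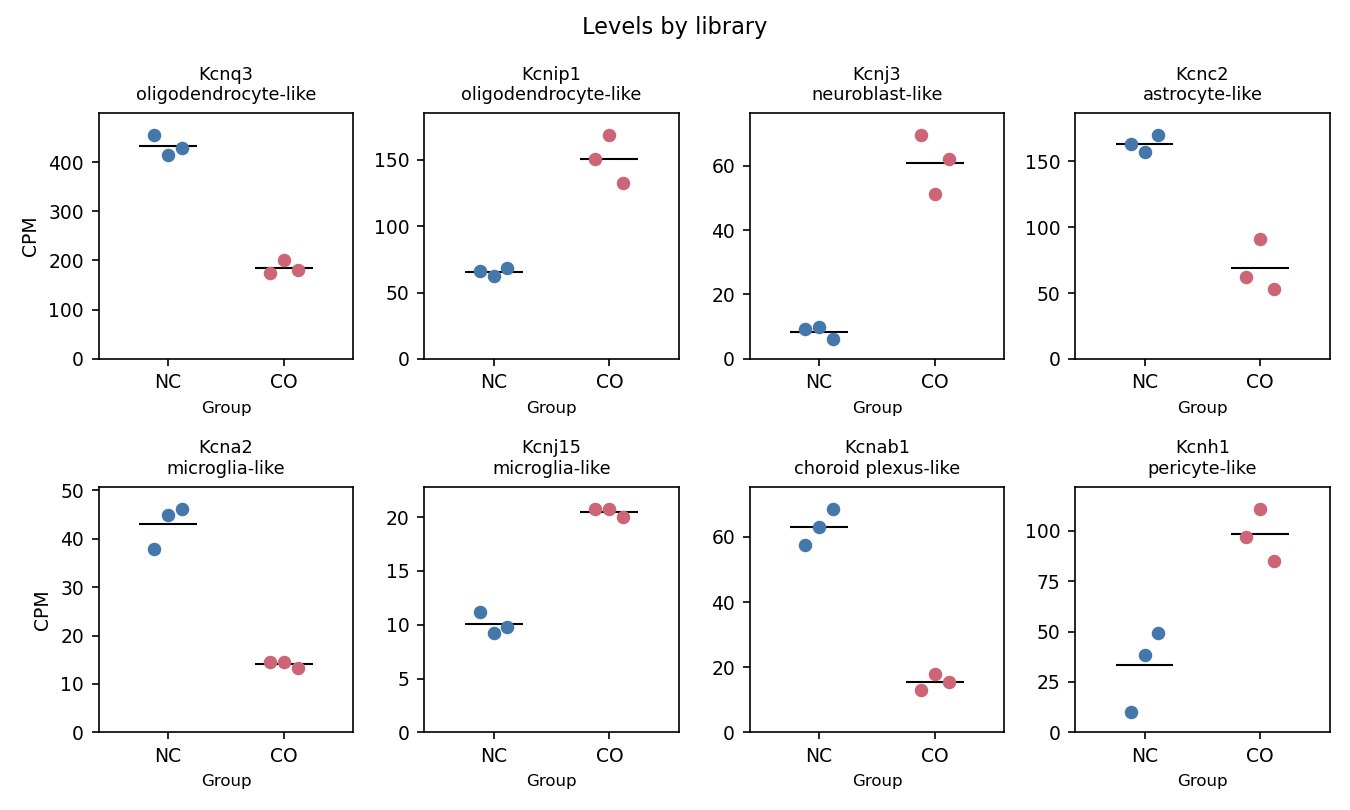
Level (CPM) of 8 gene and class pairs that rose or fell, by library, with points for libraries (blue NC, red CO) and a line for the pooled level of each group. The points of the NC and CO libraries do not overlap in the panels for Kcna2 and Kcnj15 in microglia-like cells, Kcnq3 and Kcnip1 in oligodendrocyte-like cells and Kcnj3 in neuroblast-like cells.

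Other calls in microglia-like cells were at low level. Kcna3, a delayed rectifier of activated immune cells, fell from 1.82 to 0.200 CPM, ratio 0.110 (0.0269 to 0.321), on 65 and 9 UMIs. Kcnn1, a calcium-activated channel, fell from 1.04 to 0.156 CPM, and its call was lost without NC 01 (log2 -2.48). Kcnq1 fell from 1.68 to 0.823 CPM, and its call was lost without NC 02 (-0.83), CO 01 (-0.84) or CO 03 (-1.03). Kcnk10, a leak channel, rose from 0.560 to 1.40 CPM, and its call was lost without NC 02 (0.75) or CO 03 (0.72) and in cells gated 1 by 1 (0.91). The log2 ratio was -3.92 for Kcnn1 without CO 03 and 2.08 for Kcnk10 without NC 01. Of the others with at least 1 CPM in NC, Kcna7 was at 3.14 CPM in NC and 1.85 in CO, Kcnab1 at 5.24 and 3.25, Kcnab2 at 4.84 and 3.67, Kcnk12 at 5.07 and 4.65, Kcna6 at 1.26 and 0.734, Kcnh4 at 1.85 and 1.53, Kcnh8 at 1.01 and 1.11, Kcnip1 at 1.04 and 1.33, Kcnj16 at 1.06 and 1.05, Kcnrg at 1.26 and 1.11 and Kcnq3 at 1.12 and 0.645. The remaining members with enough UMIs, Kcnc2, Kcnd1, Kcne2, Kcng3, Kcnj8, Kcnj9, Kcnj10, Kcnk2, Kcnma1, Kcnmb4, Kcnn4 and Kcnq5, were under 1 CPM in NC, as was Kcnk10. Values this low, the 4 low calls included, stand near that of the choroid plexus gene Kcnj13 (2.97 CPM in NC and 3.11 in CO), and free RNA was not told apart from expression there.

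Promoters are shown for Kcnj15, which rose in microglia-like cells, Kcna2 and Kcna3, which fell, the leading member (Kcnk13) and the classical inward rectifier (Kcnj2), so that the start regions behind these levels can be read side by side. The other called genes of the class, Kcnk10, Kcnn1 and Kcnq1, are not shown. The sequences are from RefSeq on GRCr8, 250 bases before to 50 after the annotated start, 5′ to 3′ on the gene's strand. All 87 symbols matched a RefSeq gene and 59 had a promoter in the table. Capitals mark GAGGAA or its reverse complement TTCCTC, the core letters of sites for PU.1, the ETS factor of microglia and macrophages. Both strands were searched, and overlaps with other motifs were not considered.
Kcnj15: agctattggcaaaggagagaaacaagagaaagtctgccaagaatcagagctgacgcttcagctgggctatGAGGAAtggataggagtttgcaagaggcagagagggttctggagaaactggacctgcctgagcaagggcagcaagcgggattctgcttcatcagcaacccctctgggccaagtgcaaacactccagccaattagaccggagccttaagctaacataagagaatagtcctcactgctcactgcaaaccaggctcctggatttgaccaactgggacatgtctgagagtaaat
Kcna2: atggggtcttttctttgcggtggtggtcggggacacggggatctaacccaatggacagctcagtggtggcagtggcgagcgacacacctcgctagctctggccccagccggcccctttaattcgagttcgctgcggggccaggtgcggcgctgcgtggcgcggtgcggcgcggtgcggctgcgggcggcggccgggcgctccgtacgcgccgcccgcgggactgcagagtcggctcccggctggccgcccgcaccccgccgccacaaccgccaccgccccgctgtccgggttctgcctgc
Kcna3: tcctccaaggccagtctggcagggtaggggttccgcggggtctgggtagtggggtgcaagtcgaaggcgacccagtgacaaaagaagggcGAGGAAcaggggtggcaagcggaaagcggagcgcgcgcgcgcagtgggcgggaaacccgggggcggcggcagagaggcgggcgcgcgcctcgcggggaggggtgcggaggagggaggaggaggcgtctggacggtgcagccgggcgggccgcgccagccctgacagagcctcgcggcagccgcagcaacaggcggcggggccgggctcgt
Kcnk13: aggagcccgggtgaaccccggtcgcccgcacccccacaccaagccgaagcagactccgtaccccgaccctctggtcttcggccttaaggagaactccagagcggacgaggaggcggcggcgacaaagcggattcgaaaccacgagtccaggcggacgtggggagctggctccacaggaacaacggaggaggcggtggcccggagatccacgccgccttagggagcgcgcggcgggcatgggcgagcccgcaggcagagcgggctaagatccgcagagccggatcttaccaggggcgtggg
Kcnj2: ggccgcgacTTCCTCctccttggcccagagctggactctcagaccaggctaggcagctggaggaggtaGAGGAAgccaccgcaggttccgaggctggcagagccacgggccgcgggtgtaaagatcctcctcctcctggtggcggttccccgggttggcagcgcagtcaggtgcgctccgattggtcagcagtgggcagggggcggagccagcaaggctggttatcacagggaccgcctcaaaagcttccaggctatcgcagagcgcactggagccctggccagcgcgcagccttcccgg
The windows are chr11:48070700-48070999 (plus strand), chr2:197393280-197393579 (plus strand), chr2:197320074-197320373 (plus strand), chr6:124971559-124971858 (plus strand) and chr10:96559975-96560274 (plus strand). Kcnj15 held 1 match, which starts 180 bases before the start site, Kcna3 held 1, which starts 160 bases before it, Kcnj2 held 2, and Kcna2 and Kcnk13 held none in these windows. These 6 letters are common: 27.6% of 33469 promoters of the same length held them on either strand, and 22 of 65 Kcn promoters. The longer GAGGAAGT was in 2.42% of all promoters and in 3 of the 65.

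Macrophage-like cells (616 NC and 410 CO cells) shared the leading members of microglia-like cells in another order. Kcnt2 was at 179.6 CPM in NC and 107 in CO, ratio 0.597 (0.464 to 0.763). Kcnk13 was at 158 and 116 CPM, Kcng2 at 93.6 and 132, and Kcnj2 at 49.9 and 28.7, ratio 0.575 (0.347 to 0.928). Kcna2 fell here as well, from 12.3 to 1.41 CPM, ratio 0.115 (0.00527 to 0.644). It was the 1 call in this class (4.06% of genes rose and 5.18% fell), and it was lost without NC 01, NC 02 or NC 03 (log2 -3.00, -3.16 and -3.25). It was -4.12 without CO 02, -1.78 with coarser clusters, where the fall was still called, and -0.02 when cells were gated 1 by 1, on 2 UMIs.

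In monocyte or dendritic-like cells Kcna3 fell from 71.1 (61.4, 87.0 and 67.1) to 32.8 CPM (46.1, 15.8 and 36.5), ratio 0.461 (0.290 to 0.721), with no overlap between libraries. Kcnk12, a silent tandem-pore member, fell from 17.8 to 5.69 CPM. The silent subunit Kcng3 rose from 19.8 (15.0, 21.3 and 24.0) to 56.9 CPM (96.9, 45.9 and 38.6), 2.87-fold (1.63 to 5.31), and Kcnt2 rose from 16.3 to 38.1 CPM. In the same class 9.2% of all genes rose and 6.38% fell. The NC cells came mostly from cluster 25 (207 of 306) and the CO cells mostly from cluster 27 (119 of 178), and the endothelial markers summed to 244 CPM in NC and 941 in CO; the part of either in these calls was not tested. Calls were lost for Kcna3 without NC 02 or CO 02 (log2 -0.95 and -0.79), for Kcnk12 without NC 02, CO 02 or CO 03 (-1.43, -1.47 and -1.74) and for Kcnt2 without NC 01 (1.06). The Kcna3 call was also lost with doublets kept (-0.96) and in cells gated 1 by 1 (-0.74). In T or NK-like cells the leading members were Kcnn4, the calcium-activated channel of T cells, at 85.2 CPM in NC and 67.4 in CO (0.496 to 1.24), and the accessory subunit Kcnab2, at 62.4 and 58.3 (0.557 to 1.54). Kcnk13 in that class was at 37.2 and 21.8 CPM and Kcnk5 at 19.8 and 10.9.

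In oligodendrocyte-like cells 4 genes, Kcnq3, Kcna6, Kcna1 and Kcnip1, led. Kcnq3 encodes a subunit of the M-current, which opens near the resting potential and is closed by muscarinic receptors. It stood at 454, 413 and 429 CPM in NC and 174, 201 and 181 in CO. The lowest NC library was above the highest CO library by a wide margin, and Kcnq3 fell to 0.428 of its NC level (0.402 to 0.455), where 2.46% of all genes fell. The counts were 15532 UMIs in 2452 of 3327 NC cells and 2769 UMIs in 718 of 1395 CO cells. It was lower in CO in the largest cluster (472.4 to 198.2 CPM) and in cluster 16 (297.7 to 124.7), and higher in the shallow cluster 19 (144.9 to 239.1, on 38 and 31 UMIs).

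Kcnip1 encodes a calcium-binding subunit of A-type channels. In oligodendrocyte-like cells it stood at 66.0, 62.2 and 68.3 CPM in NC and 150.4, 169 and 133 in CO. All CO libraries were above all NC libraries, and Kcnip1 rose 2.29-fold (2.10 to 2.51), where 2.7% of all genes rose. It came from 822 NC and 574 CO cells. The rise was in the largest cluster (79.8 to 182.3 CPM) and not in cluster 16 (12.2 to 8.0). Its highest class was astrocyte-like cells, at 641 CPM in NC and 584 in CO. The astrocyte markers in oligodendrocyte-like cells summed to 238 CPM in NC and 217 in CO, and the part of astrocyte RNA in the rise was not tested. Dpp10, another A-type channel subunit, rose in the same class from 5.13 (5.62, 4.34 and 5.34) to 15.1 CPM (14.6, 16.0 and 14.6). The delayed rectifiers Kcna6 and Kcna1, which oligodendrocyte-like cells held most of, were at 238 CPM in NC and 282 in CO, ratio 1.19 (1.12 to 1.26), and at 134 and 149, ratio 1.11 (1.03 to 1.20).

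Oligodendrocytes with and without Klk6, a protease of a mature subtype, were looked at apart, a split made after earlier results were seen. Cells with a Klk6 UMI made up 80.3% of the NC and 79.5% of the CO class, and in CPM by total UMIs Kcnq3 was at 436.7 in NC and 178.8 in CO in these and at 399.7 and 243.1 in the rest. Kcnip1 was at 54.9 in NC and 131.7 in CO with a Klk6 UMI and at 154.8 and 310.0 without. Both differences were thus present on either side of the split, and Kcnip1 was higher without Klk6 in both groups. Cells without a Klk6 UMI were also shallower, with a median of 4108 UMIs in NC and 3815.5 in CO against 9978 and 10605.

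**Figure D4:**
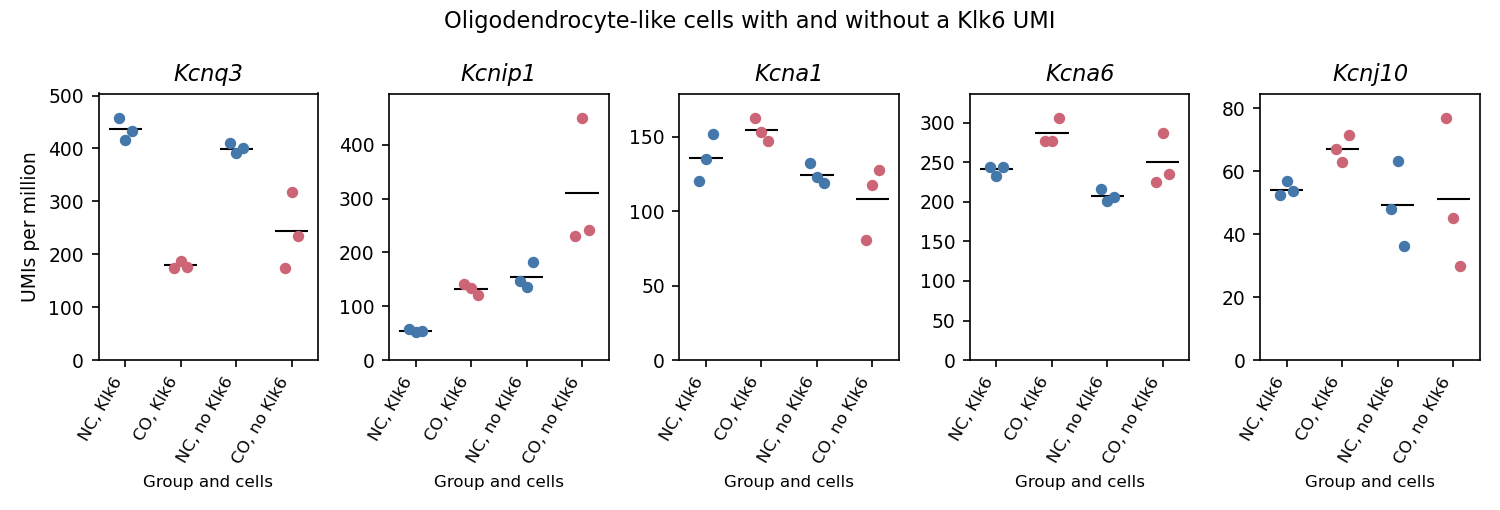
Level (CPM by total UMIs) of Kcnq3, Kcnip1, Kcna1, Kcna6 and Kcnj10 in oligodendrocyte-like cells with and without a Klk6 UMI, with points for libraries (blue NC, red CO) and lines for pooled levels. Kcnq3 is lower in CO and Kcnip1 higher in CO in both kinds of cell, and pooled Kcnj10 lies between 49.2 and 67.1 CPM.

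Astrocyte-like cells (500 NC and 662 CO cells) had the highest summed level of the compared classes in both groups. Kcnma1, the large-conductance calcium-activated (BK) channel, stood at 418, 365 and 471 CPM in NC and 241, 293 and 329 in CO, ratio 0.695 (0.588 to 0.822). The libraries did not overlap, but the difference was under 2-fold. Only smooth muscle-like cells had more Kcnma1 (658 CPM in NC and 624 in CO). Its smooth muscle accessory subunit Kcnmb1 had 10 and 4 UMIs there (17.3 and 6.86 CPM). Kcnq3 in astrocyte-like cells was at 219 CPM in NC and 210.1 in CO, ratio 0.961 (0.775 to 1.19), on NC libraries from 108 to 293 CPM. The fall of Kcnq3 in oligodendrocyte-like cells and this ratio were not tested against each other.

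Kcnc2, a fast-spiking type delayed rectifier, stood at 163, 157 and 169.8 CPM in NC and 61.9, 91.2 and 53.0 in CO astrocyte-like cells. Every NC library was above every CO library, and Kcnc2 fell to 0.422 (0.306 to 0.577), where 4.52% of all genes fell. It had 275 UMIs in 65 NC cells and 152 in 53 CO cells. In cluster 12 it went from 179.8 to 78.0 CPM, and in cells gated 1 by 1 the log2 ratio was -1.87, beside -1.24. The CO cells of this class came more from cluster 18, whose median was 767 UMIs, and the class median was 3026.5 UMIs in NC and 1608 in CO. Neuroblast markers in the class summed to 196 CPM in NC and 97.1 in CO, and their part in the fall was not tested. Lgi1, a secreted protein that binds the receptors of voltage-gated channel complexes, fell in the same cells from 326 (308, 298 and 370.3) to 86.2 CPM (132, 72.0 and 65.3), ratio 0.265 (0.203 to 0.343).

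Kcna1 fell in astrocyte-like cells from 29.1 to 12.3 CPM and the sodium-activated channel Kcnt1 rose from 17.8 to 39.0, where 4.81% of all genes rose. The calls were lost without NC 02 or CO 01 for Kcna1 (log2 -1.07 and -0.95) and without NC 01 or CO 03 for Kcnt1 (1.04 and 0.76), and for both in cells gated 1 by 1 (-0.91 and 1.00). Of the genes at least 4-fold above the next class here in NC, Kcnt1 alone was called. The silent subunit Kcng4 was at 99.2 CPM in NC and 75.8 in CO, and the small-conductance calcium-activated channels Kcnn2 at 77.2 and 71.2 and Kcnn3 at 30.3 and 29.0.

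In choroid plexus-like cells Kcne2, the accessory subunit that pairs with Kcnq1 and Kcna channels there, stood at 430.3, 491 and 553 CPM in NC and 273, 299 and 369 in CO. The libraries did not overlap and the ratio was 0.652 (0.611 to 0.694), under 2-fold. Kcnq1 was at 50.1 CPM in NC and 43.8 in CO, and the weak inward rectifying leak channel Kcnk1 at 149 and 163, ratio 1.09 (0.990 to 1.21). Kcnab1, a beta subunit of Kcna channels, stood at 57.6, 62.9 and 68.6 CPM in NC and 13.1, 18.0 and 15.4 in CO. All CO libraries lay far below, and Kcnab1 fell to 0.246 (0.187 to 0.318), on 901 UMIs in 226 of 375 NC cells and 164 UMIs in 82 of 707 CO cells. The class was unevenly made up, with 329 of the NC cells in cluster 17 (median 47311.5 UMIs) and 526 of the CO cells in cluster 15 (median 1302.5). Kcnab1 was lower in CO within each, at 64.0 and 14.3 CPM in cluster 17 and 72.4 and 21.7 in cluster 15. Its log2 ratio of -2.02 went to -2.98 in cells thinned to 2000 UMIs. Of all genes in the class 7.84% rose and 4.51% fell.

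Kcnu1, a relative of the BK channel known from sperm, fell in choroid plexus-like cells from 7.68 to 1.41 CPM, ratio 0.184 (0.0665 to 0.423). Kcnn3 fell from 2.10 to 0.471 CPM. Kcnn1 fell from 35 UMIs (2.44 CPM) to 0, a ratio of at most 0.116 when the CO group is set at 3 counts. Kcnq5 rose from 0.559 to 2.92 CPM on 31 UMIs in 6 CO cells, and Kcnk13 from 1.40 to 4.15 CPM, ratio 2.97 (1.26 to 7.66). The microglia markers in these cells summed to 140 CPM in NC and 284 in CO, with 8 of 10 at least 2-fold higher, and their part in the Kcnk13 rise was not tested. Leaving out single libraries ended the calls of Kcnk13 (NC 02, log2 1.30, and CO 03, 1.46), Kcnn1 (NC 01, -3.08, NC 02, -3.24, and NC 03, -2.99), Kcnn3 (NC 01, -1.97, NC 02, -1.92, CO 01, -2.38, CO 02, -2.37, and CO 03, -1.71) and Kcnq5 (CO 02, 2.20, and CO 03). Without NC 03 the Kcnq5 ratio was 3.77, and without CO 03 the Kcnn1 ratio was -2.35, both on the log2 scale. The Kcnn1 ratios without single libraries also have CO set at 3 counts, so their size follows that limit. In cells of at least 2000 UMIs, which leaves out most cells of the shallow cluster 15, the log2 ratio of Kcnk13 was 0.47 on 39 UMIs and that of Kcnn3 -2.04 on 35, and neither was called. The log2 ratio of Kcnq5 was 2.98 with doublets kept, and that of Kcnu1 -1.77 in cells gated 1 by 1, beside -2.44. In cells thinned to 2000 UMIs the log2 ratio of Kcnu1 was -0.20, and it was not called.

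**Figure D5:**
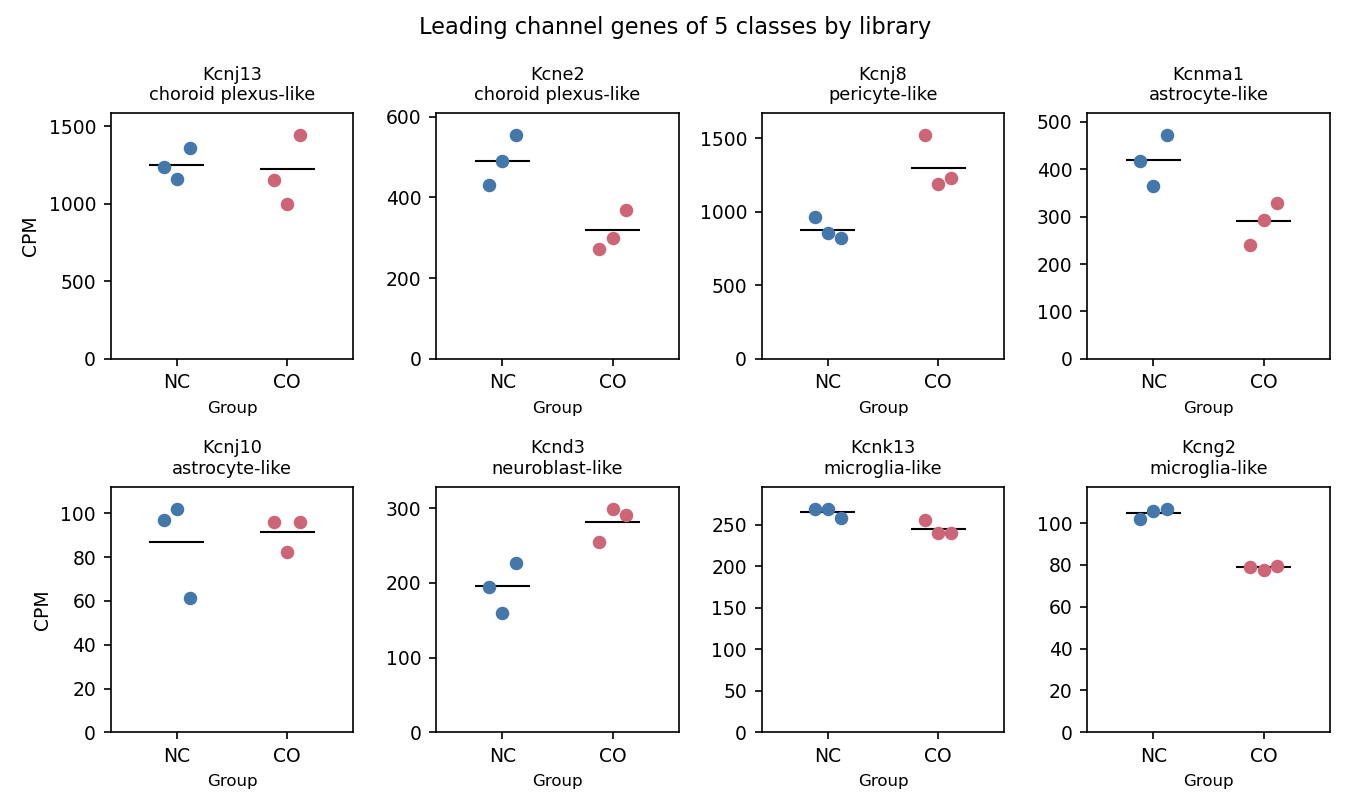
Level (CPM) by library of 8 leading gene and class pairs, with points for libraries (blue NC, red CO) and a line for the pooled level of each group. Kcnj13 in choroid plexus-like cells (1254 and 1224 CPM) and Kcnj10 in astrocyte-like cells overlap between groups, while Kcne2 and Kcng2 are lower and Kcnj8 higher in every CO library.

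In neuroblast-like cells (493 NC and 1409 CO cells) the A-type channel Kcnd3 led, at 195, 159.5 and 226 CPM in NC and 254, 299 and 291 in CO. The CO libraries were all above the NC libraries, with a ratio of 1.44 (1.25 to 1.65). Kcnh8, a slow voltage-gated channel, was at 119 CPM in NC and 86.6 in CO, and the leak channel Kcnk10 at 111 and 68.8, with NC libraries from 54.8 to 221. Kcnc2 was at 101 and 60.7 CPM, Kcnh7 at 28.6 and 30.6, and the BK accessory subunits Kcnmb2 and Kcnmb4 at 37.9 and 28.8 and at 32.4 and 37.9. Beside Kcnj3, the genes that rose were Kcnip1 (13.5 to 30.0 CPM), the A-type channel Kcna4 (1.93 to 8.36) and Kcnn2 (3.53 to 9.75), where 3.69% of all genes rose and 2.5% fell. Kcnh4 fell from 14.1 to 6.65 CPM. Calls were lost for Kcnip1 without NC 02 or CO 02 (log2 0.66 and 0.99), for Kcna4 without NC 01 or NC 02 (2.10 and 1.62), for Kcnn2 without NC 01, NC 02, NC 03 or CO 02 (1.52, 1.62, 1.25 and 1.21) and for Kcnh4 without NC 02 or CO 02 (-0.65 and -0.76). The log2 ratio was 2.24 for Kcnip1 without NC 01 and 3.03 for Kcna4 without NC 03. In cells gated 1 by 1 it was 1.82 for Kcnip1, -1.74 for Kcnh4, and 1.64 and 0.86 for Kcna4 and Kcnn2, which were then not called.

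Kcnk13 fell in neuroblast-like cells from 41.7 (42.1, 42.4 and 40.9) to 9.43 CPM (5.84, 15.7 and 6.52), ratio 0.226 (0.145 to 0.349). The 130 NC UMIs came from 9 cells, with 42 in 1 of them, so the interval understates the spread. The microglia markers summed to 291 CPM in NC and 277 in CO. The log2 ratio was -2.75 without CO 02 and -1.07 with doublets kept, and with cells gated 1 by 1 it was 1.46 on 11 UMIs.

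Pericyte-like cells (487 NC and 492 CO cells) had 3 calls. The class is cluster 10 alone, with a median of 2311 UMIs. The deeper cluster 13 (301 NC and 312 CO cells, median 10307 UMIs) also led with pericyte markers. It was left unnamed because its endothelial score was close, so its cells are not in these values. Of 2140 Kcnj8 UMIs in NC, 1031 were in pericyte-like cells. Kcnh1, a slowly activating voltage-gated channel of the ether-a-go-go group, stood at 10.3, 38.4 and 49.1 CPM in NC and 96.8, 111 and 85.2 in CO. Each CO library was above each NC library, and Kcnh1 rose 2.96-fold (1.69 to 5.47), where 6.81% of all genes rose and 5.74% fell. The call held under each alternative, but its size did not: the log2 ratio was 1.57, and 3.06 in cells of at least 2000 UMIs, 3.54 in cells thinned to 2000 UMIs and 2.41 in cells gated 1 by 1, on 115, 66 and 101 UMIs. The first 2 lie above the printed interval. The acid-sensitive leak channel Kcnk3 rose from 23.8 (18.1, 29.5 and 24.6) to 51.7 CPM (71.3, 44.3 and 43.7), ratio 2.17 (1.08 to 4.66). Its call was lost without NC 01 (log2 0.95), NC 03 (1.14) or CO 01 (0.91) and with doublets kept (0.92), and the log2 ratio was 1.73 in cells gated 1 by 1 and 1.93 in cells thinned to 2000 UMIs. Kcnk13 rose from 6.81 to 41.7 CPM, ratio 6.12 (1.97 to 28.0), in cells whose microglia markers summed to 472 CPM in NC and 1562 in CO (8 of 10 markers at least 2-fold higher). With doublets kept the log2 ratio of Kcnk13 was 0.42, and without NC 03 it was 3.92. In cells gated 1 by 1 no Kcnk13 UMI was left. The part of microglial RNA was not tested. The silent subunit Kcns3 was at 44.3 and 22.3 CPM, ratio 0.503 (0.233 to 1.04), and Kcnab1 at 28.1 and 28.0.

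Ependymal-like cells line the ventricles and had few cells (154 NC and 191 CO). Among the leading members were Kcna6 (95.3 CPM in NC and 118 in CO) and Kcnk16 (64.8 and 53.6), a leak channel whose next class was at 0.908 CPM in NC. Kcnk7, a silent tandem-pore member, was at 21.6 and 12.1 CPM. Kcnk2, a stretch-sensitive leak channel, stood at 4.93, 3.66 and 3.08 CPM in NC and 35.4, 27.5 and 21.0 in CO. All CO libraries were above, and Kcnk2 rose 7.30-fold (2.27 to 37.7), on UMIs from 25 CO cells, where 6.33% of all genes rose. Kcnh5 rose from 0 to 51 UMIs (19.3 CPM, 12 cells), which is at least 11.6-fold higher with 3 counts over the NC group as the limit. Kcnq1 rose from 7.20 to 23.8 CPM, Kcnrg, a regulator of Kcna channels, from 5.54 to 18.1, and Kcnk13 from 1.11 to 16.2, on 43 UMIs in 7 CO cells and beside microglia markers at 175 CPM in NC and 306 in CO.

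In the same cells Kcnq3 fell from 44.9 (23.0, 18.3 and 87.7) to 6.04 CPM (6.43, 8.81 and 2.47), ratio 0.135 (0.0495 to 0.311), where 5.57% of all genes fell. The oligodendrocyte markers summed to 903 CPM in NC, with libraries from 92.1 to 1739, and 83.4 in CO, and their part in the fall was not tested. Without NC 03 the log2 ratio of Kcnq3 was -1.80. Kcnab1 fell from 26.0 to 10.2 CPM. Calls were lost for Kcnk13 without CO 03 (log2 3.37), for Kcnq1 without CO 01 (1.03) and in cells gated 1 by 1 (1.33), for Kcnrg without NC 01 (1.25), NC 02 or CO 02 (1.44) and for Kcnab1 without NC 01, NC 02, CO 02 or CO 03 (-1.11, -1.18, -1.17 and -1.06). The log2 ratio was 3.26 for Kcnk13 without NC 01 and 4.60 with doublets kept. It was 2.79 for Kcnrg without NC 03, -2.01 for Kcnab1 without CO 01, and, with the NC group set at 3 counts, 2.93 and 2.87 for Kcnh5 without NC 01 and NC 03. In cells thinned to 2000 UMIs it was 0.14 for Kcnk13, 1.14 for Kcnh5 and -0.95 for Kcnq3, and none was called. In cells gated 1 by 1 it was 2.95 for Kcnh5 and -1.37 for Kcnq3, again without a call, and no Kcnk13 UMI was left.

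Endothelial-like cells (2700 NC and 1951 CO cells) had the lowest summed level, and the groups fell into different clusters, 2540 NC cells in cluster 4 and 1896 CO cells in cluster 5. The BK accessory subunit Kcnmb4 stood at 0.753, 0.204 and 0.371 CPM in NC and 7.49, 8.56 and 7.92 in CO. The libraries were far apart and Kcnmb4 rose 17.8-fold (5.67 to 90.9), on 7 UMIs in 6 NC cells and 101 in 62 CO cells, where 4.81% of all genes rose and 5.15% fell. Its pore gene Kcnma1 was not among the members with enough UMIs here. Kcne3 rose from 1.09 to 5.86 CPM (CO libraries from 3.26 to 10.1), Kcnq1, with which Kcne3 is known to pair, from 1.03 to 4.75 (3.73 to 5.71), and Kcnj15 from 0.449 to 2.14. Kcnrg fell from 2.11 to 0.317 CPM. In NC each of these called genes stood below the choroid plexus gene Kcnj13 in endothelial-like cells. In CO Kcnmb4, Kcne3 and Kcnq1 stood above that NC level of Kcnj13, and Kcnj15 and Kcnrg below it. Free RNA was not told apart from expression at such low levels, and its part in these calls was not tested. Kcnab1, the leading member, was at 51.8 CPM in NC and 28.1 in CO, ratio 0.542 (0.444 to 0.658), and in NC it was at 297.5 CPM in the small cluster 32. Calls were lost for Kcnj15 without NC 02, CO 01 or CO 03 (log2 1.93, 2.39 and 1.56) and for Kcnrg without NC 01, NC 02, NC 03 or CO 01 (-2.70, -2.63, -2.89 and -2.17). The Kcnrg call was also lost with doublets kept, where its log2 ratio went from -2.74 to -1.41. The log2 ratio was 3.32 and 1.78 for Kcne3 without NC 01 and CO 01, 4.77 for Kcnmb4 without NC 01 and 3.01 for Kcnq1 without NC 03.

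Smooth muscle-like and fibroblast-like cells were too few per library to be compared and are given by level. Smooth muscle-like cells led in Kcnma1 and in Kcnab1, at 305 CPM in NC and 178 in CO, and Kcns3 was at 79.4 and 61.7. Fibroblast-like cells led in the leak channels Kcnk5, at 78.4 CPM in NC and 58.1 in CO, and Kcnk2, at 33.9 and 54.3. Kcnd1, an A-type channel, was under 4 CPM in every class in NC, Kcnk6 had 6 UMIs in NC and 0 in CO over all kept cells, and Kcnd2 was not analysed here.

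Family by family, the 20 tested Kcnq pairs held 3 that rose and 3 that fell, the 35 Kcnj pairs 4 and 1, the 33 Kcnk pairs 6 and 2, the 26 Kcnh pairs 2 and 1, the 15 Kcnn pairs 1 and 3, and the 18 Kcna pairs 1 and 5, beside 5.22% and 4.52% of all pairs of any gene and class. The share of the Kcn UMIs over all kept cells went from 16.4% to 6.82% for Kcnq, 15.0% to 9.77% for Kcna and 14.3% to 19.3% for Kcnk. These shares also follow which cells were caught: oligodendrocyte-like cells numbered 3327 in NC and 1395 in CO and neuroblast-like cells 493 and 1409, and over all kept cells Kcnq3 was at 130.4 CPM in NC and 35.2 in CO, a wider gap than within oligodendrocyte-like cells.

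Among 31 genes that work with potassium channels, such as sodium pumps, chloride cotransporters and channel partners, 201 pairs had enough UMIs, and 23 rose and 15 fell, beside 5.22% and 4.52% of all pairs. The classes with the most calls were monocyte or dendritic-like cells (3 rose and 4 fell of 15, beside 9.2% and 6.38% of all genes there) and pericyte-like cells (5 and 1 of 16, beside 6.81% and 5.74%). In pericyte-like cells the sodium pump subunit Atp1b1 rose from 13.6 (12.9, 5.90 and 20.1) to 154 CPM (61.1, 192 and 190.0), and the purine receptor P2ry12, a microglia gene, from 17.0 to 52.4. Fxyd1, a regulator of the pump, fell from 265 to 122 CPM. In microglia-like cells 0 rose and 2 fell of 23, of which the potassium-chloride cotransporter Slc12a7 went from 6.50 (5.78, 7.14 and 6.55) to 3.22 CPM (4.14, 3.01 and 2.54). P2ry12, a receptor known to act on the Kcnk13 current, was at 293 CPM in NC and 194 in CO microglia-like cells, ratio 0.662 (0.634 to 0.692). The sodium-potassium-chloride cotransporter Slc12a2 fell in ependymal-like cells from 165 (47.7, 161 and 279) to 53.6 CPM (56.8, 51.7 and 52.0), where NC 01 lay below all CO libraries.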

How the data were processed

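The unit is the UMI count as deposited, without normalization, which the authors made with Cell Ranger on Rnor_6.0, per the submitters' processing notes (no version stated). The files held 42293 barcodes and 15227 genes, none of them mitochondrially encoded. Barcodes under 500 UMIs or 200 genes (10.4% in NC, 9.73% in CO) were dropped. Doublets came out per library with Scrublet in scanpy 1.11.5 (576 NC, 603 CO). In CO 01 it marked 2 barcodes, so the highest 6% of scores (394) were removed there. Leiden clustering without Kcn genes (leidenalg 0.10.2, resolution 1) gave 40 clusters. 32 were named from marker lists, into 16 classes, and 8 were not; details of the naming were chosen after seeing the clusters, and classes may differ from those of the study. Over 15 pairs of libraries 1 barcode was shared.

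Members and lists were chosen with earlier results of these data known. Counts were summed per class and group and scaled with TMM factors (edgeR 4.0.16, R 4.3.3). Ratios carry exact binomial intervals (scipy 1.17.1), and a count of 0 was set to 3 over the group. Counts of 2 made up 26.4% to 26.6% of entries and even counts were in excess in all 6 libraries, so counts were divided by 2.36, the median over 4936 genes of the sum of squares over the sum of a gene's counts, before intervals were made (quartiles 1.97 to 3.93). This was chosen after seeing the data, and genes held by few cells vary more. Intervals cover counting error only. On simulated counts they held the true ratio for 95.7% of 11628 genes in microglia-like and 96.5% of 8352 in pericyte-like cells. There 97.9% and 96.9% of 4-fold changes were called, and 91.9% and 77.3% of 2.5-fold changes. The simulated counts had a variance of 2.36 times their mean, the factor the intervals use, and no spread between libraries. Their coverage was therefore built in and does not test the factor on the real counts.

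Named genes were up to 4 Kcn genes of the highest NC level in each class with at least 30 UMIs, those 4-fold above the next class, every called gene, every member with 30 UMIs in microglia-like cells, and a fixed list (Kcnj2, Kcnj8, Kcnj10, Kcnj13, Kcnj16, Kcnk1, Kcnk2, Kcnk6, Kcnk13, Kcna1 to Kcna3, Kcnn4, Kcnma1, Kcnmb1, Kcnmb4, Kcnd1, Kcnd2, Kcnq3, Kcnab1, Kcnab2). A few items were left out of the text and are not reported here. Alternatives were other scaling, minimum counts, doublets kept, deeper or thinned cells, coarser clusters, cells gated 1 by 1, a 1.5-fold line, each library left out, and edgeR's quasi-likelihood test over libraries.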

Additional observations from a re-analysis of the deposited data

Results flagged for a closer look

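Kcnk13 was at least 2-fold higher in CO in choroid plexus-like (log2 ratio 1.57), ependymal-like (3.87) and pericyte-like cells (2.61) and at least 2-fold lower in neuroblast-like cells (-2.15), with every CO library on one side of every NC library in each. Kcnq1 was likewise higher in endothelial-like (2.21) and ependymal-like cells (1.72) and lower in microglia-like cells (-1.03), and Kcnrg higher in ependymal-like (1.71) and lower in endothelial-like cells (-2.74). The pairs were picked for calls of opposite direction without overlap between libraries, so that agreement is the rule of choice and not a finding. The differences between classes were not tested. Leaving out at least 1 library ended both Kcnrg calls, the Kcnq1 calls in microglia-like and ependymal-like cells, and the Kcnk13 calls in choroid plexus-like and ependymal-like cells. In cells gated 1 by 1 the Kcnk13 log2 ratio was -1.26 in choroid plexus-like and 1.46 in neuroblast-like cells, on few UMIs. In ependymal-like and pericyte-like cells gated this way no Kcnk13 UMI was left, so there was no ratio.

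In classes with too few cells per library to be compared, Kcnj16 was higher in CO in fibroblast-like cells (16.4 CPM in NC and 52.6 in CO, log2 ratio 1.68), and Kcnk3 (57.0 and 118 CPM, 1.06) was higher in smooth muscle-like cells. The Kcnk3 libraries overlapped, at 31.0, 94.9 and 54.5 CPM in NC and 45.1, 88.6 and 233 in CO.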

How the results depend on the processing

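Of 624 values of the 45 called pairs under alternatives, 618 kept their sign, and 7 pairs kept the call under all of them. The other sign appeared 6 times as log2 ratios: -0.13 for Kcnj8 in oligodendrocyte-like cells with doublets kept, 0.80 for Kcnn1 and -1.37 for Kcnq5 in choroid plexus-like cells thinned to 2000 UMIs, and, with cells gated 1 by 1, -1.26 for Kcnk13 and -2.26 for Kcnq5 in choroid plexus-like and 1.46 for Kcnk13 in neuroblast-like cells, 5 of the 6 on under 30 UMIs. The Kcnn1 value rests on the 3 counts set in place of 0 in CO, where Kcnn1 still had no UMI. Beside 6 calls in microglia-like cells and 25 higher and 20 lower pairs in all, thinning gave 2, 6 and 4 on far fewer UMIs, gating gave 14 higher pairs, and a 1.5-fold line gave 31 lower. Of the 45 pairs 36 lost the call when thinned, 23 when gated, 5 with doublets kept, 2 in cells of at least 2000 UMIs, 1 when scaled by total UMIs and 0 with coarser clusters. The pairs of monocyte or dendritic-like cells had no value with coarser clusters and are not in that count. The gated count leaves out Kcnk13 in ependymal-like and pericyte-like cells, where no UMI was left to give a ratio. Without each library in turn the calls ranged from 3 to 6, 16 to 25 and 12 to 21; the lowest of each were without NC 02, and 27 of the 45 pairs lost the call without at least 1 library. With every UMI counted as independent, an alternative chosen after seeing the data, they were 8, 36 and 26. edgeR over libraries (adjusted p under 0.05, no fold line) called 11 of 36 in microglia-like cells (38.2% of all genes there). With the replicate number as a block it called 9 (36.7%), with 19 higher and 24 lower pairs of 236 (17.1% of all pairs). The 33 correlations between same-numbered libraries ran from -0.346 to 0.147. With libraries of a group this alike, they cannot show whether same-numbered libraries were handled together, and edgeR does not measure spread between rats. Of 420 values of pairs in microglia-like cells that were not called, 419 stayed inside the reported interval. Pairs of other classes that were not called were not run under the alternatives. Depth limits what can be said of genes near 30 UMIs.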

Other observations

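The 11 members with under 30 UMIs over all kept cells belong to no comparison above. Over all kept cells Kcna5 had 10 and 10 UMIs in NC and CO, Kcne5 4 and 14, Kcnip2 3 and 6, Kcnj1 12 and 0, Kcnj4 3 and 16, Kcnj6 6 and 6, Kcnk6 6 and 0, Kcnmb1 10 and 17, Kcns2 0 and 10, Kcnv1 6 and 14 and Kcnv2 10 and 1. The G-protein-gated rectifier genes differed in where they were caught: Kcnj5 in microglia-like cells (2441 of its 2746 NC UMIs), Kcnj9 mostly in oligodendrocyte-like cells (304 of 363), Kcnj3 in neuroblast-like cells and Kcnj6 hardly at all. Such shares also follow the size of a class. By level in NC, Kcnj9 was at 8.48 CPM in oligodendrocyte-like and 8.31 in ependymal-like cells.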
